A study of Saccharomyces cerevisiae with 12 samples.

Results

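Among the splice forms outside the annotation that were listed for 12 yeast RNA-seq libraries, 189 had no read in any library with intact Prp43 and at least 1 read in 2 or more of the 6 libraries carrying the prp43-1 allele. They are called prp43-1-only forms here. They were selected on these read counts from 6195 listed forms, leaving out those of SCR1, which encodes the signal recognition particle RNA, so their absence from the other libraries is a description and was not tested. Their 676 reads were spread thinly over 129 host genes, and the most-read form had 18 reads.

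A listed form is a segment of a transcript that sequencing reads skipped, given by its first and last skipped base. In budding yeast, introns begin with a GT dinucleotide, usually within GTATGT, end with AG, and hold a branch-point adenosine, usually within TACTAAC, that attacks the 5′ splice site in the first step of splicing. Prp43 is a DEAH-box RNA helicase. It takes apart the spliceosome that still holds the excised intron after splicing, and it also removes spliceosomes that stall earlier. It has a separate role in making ribosomes.

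The libraries held rRNA-depleted total RNA of haploid Saccharomyces cerevisiae of the laboratory strain BY4741, whose labels give the markers his3Δ1, leu2Δ0, met15Δ0 and ura3Δ0 and mating type MATa for every genotype. The 6 genotypes were wild type, set1Δ, set2Δ, prp43-1, set1Δ prp43-1 and set2Δ prp43-1, where Set1 and Set2 are histone H3 methyltransferases. Each was sequenced at 25 °C and at 37 °C as 1 library, with growth in YPD medium, and the length of any shift to 37 °C was not given. With no second library of any condition, neither a library nor a strain has a replicate check, and each strain may be 1 clone. The wild-type, set1Δ and set2Δ libraries are together called the PRP43 libraries.

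The columns summed to between 214055 and 402886 reads on listed forms, of which 37392 to 86845 per library lay outside SCR1. These sums are not the sequencing depth, which is unknown. The prp43-1 libraries held 334692 such reads in all and the PRP43 libraries 297755, so the comparison behind the selection was nearly balanced in reads. Reads on forms of alpha-specific genes, between 2 and 99 per library, were found in set1Δ, set2Δ and set2Δ prp43-1, against their MATa labels, and 0 in the other libraries. Those other libraries had 1 to 3 reads each on a-specific genes, which had 0 in the first group. With wild type, prp43-1 and set1Δ prp43-1 alone, the same rule chose 285 forms, of which 108 were among the 189. Fewer PRP43 libraries then had to be at 0, which by itself can only add forms. The 108 are those with reads in at least 2 of the remaining prp43-1 libraries. These numbers therefore do not measure how far the conflict with the labels affects the selection. The prp43-1 library at 37 °C also stood apart, with 557 forms that were seen there alone with 1 read, against 63 to 189 in the other libraries. Without it, 128 of the 189 remained. The targeted genes gave little check of the labels. PRP43 itself had 1 listed form, a 319-nt skip in its coding exon with 1 read in prp43-1 and 1 in set2Δ prp43-1, both at 25 °C, and it is one of the 189. SET1 had 2 listed forms with 1 read each in prp43-1 at 37 °C.

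The forms that start at an annotated 5′ splice site but stop before the branch point are shown first, because a skip of this kind leaves the usual branch point of the intron in the retained RNA. All sequences are of the R64 (sacCer3) reference, written 5′ to 3′ on the strand of the host gene, with the first 6 and the last 3 skipped bases in capitals. In RPL7A, a ribosomal protein gene, skips of 110 nt (chrVII:365323-365432, minus strand) and 69 nt (chrVII:365364-365432) share the 5′ splice site of the intron from 365432 down to 364965. A skip of 96 nt (chrVII:365337-365432) from the same site missed the selection by 1 read and is printed for comparison.
RPL7A 110 nt: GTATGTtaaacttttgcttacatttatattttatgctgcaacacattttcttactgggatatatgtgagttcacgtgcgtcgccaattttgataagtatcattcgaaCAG
RPL7A 96 nt: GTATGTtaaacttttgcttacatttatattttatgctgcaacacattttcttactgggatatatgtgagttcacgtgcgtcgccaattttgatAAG
RPL7A 69 nt: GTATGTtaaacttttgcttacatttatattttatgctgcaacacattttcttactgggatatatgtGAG
The same arrangement was found in RPL40B, which encodes a ubiquitin fused to a ribosomal protein (chrXI:618619-618742, minus strand), EFB1, a translation elongation factor gene (chrI:142254-142347, plus strand), MPT5, a Puf-family mRNA-binding protein (chrVII:167355-167469, plus strand), and RPS4B, a ribosomal protein gene (chrVIII:505380-505516, minus strand).
RPL40B 124 nt: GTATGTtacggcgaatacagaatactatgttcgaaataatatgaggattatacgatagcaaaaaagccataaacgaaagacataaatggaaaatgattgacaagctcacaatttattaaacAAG
EFB1 94 nt: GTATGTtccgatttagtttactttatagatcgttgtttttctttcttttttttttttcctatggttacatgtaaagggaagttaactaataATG
MPT5 115 nt: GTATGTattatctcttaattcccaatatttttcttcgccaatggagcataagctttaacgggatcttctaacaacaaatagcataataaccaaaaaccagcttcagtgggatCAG
RPS4B 137 nt: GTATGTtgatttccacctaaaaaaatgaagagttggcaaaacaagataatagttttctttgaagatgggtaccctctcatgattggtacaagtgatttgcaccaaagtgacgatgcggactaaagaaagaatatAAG

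A pair of further forms shows a skip that keeps the annotated 5′ splice site and moves the 3′ end past the annotated one, so that the branch consensus TACTAAC, also in capitals, stays inside the skip. One lies in RPL36B, a ribosomal protein gene (chrXVI:75953-76223, minus strand), and one in SUS1, a gene of transcription and mRNA export (chrII:462430-462559, plus strand).
RPL36B 271 nt: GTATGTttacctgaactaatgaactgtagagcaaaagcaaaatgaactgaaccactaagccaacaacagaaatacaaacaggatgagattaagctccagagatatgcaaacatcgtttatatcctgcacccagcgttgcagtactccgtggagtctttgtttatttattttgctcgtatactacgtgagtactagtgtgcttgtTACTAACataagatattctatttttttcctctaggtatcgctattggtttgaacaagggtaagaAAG
SUS1 130 nt: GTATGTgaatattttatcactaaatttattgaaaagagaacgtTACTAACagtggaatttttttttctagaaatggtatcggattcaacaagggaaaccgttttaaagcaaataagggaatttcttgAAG

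Most of the 189 look different: they lie inside an exon and have no splice-site ends. Examples from 5 hosts, the first 4 of them the most-read of this kind, are shown with their first and last 2 skipped bases in capitals. They come from YEF3 (chrXII:638186-638225, plus strand), which encodes translation elongation factor 3, RPR1 (chrV:117963-117996, minus strand), the RNA of RNase P, AAT2 (chrXII:197935-198022, minus strand), a cytosolic aspartate aminotransferase, NSR1 (chrVII:807471-807533, minus strand), a nucleolar protein of ribosome assembly, and SNR30 (chrXII:198971-198982, plus strand), a small nucleolar RNA needed for 18S rRNA processing.
YEF3 40 nt: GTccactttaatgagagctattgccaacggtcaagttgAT
RPR1 34 nt: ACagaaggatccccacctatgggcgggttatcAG
AAT2 88 nt: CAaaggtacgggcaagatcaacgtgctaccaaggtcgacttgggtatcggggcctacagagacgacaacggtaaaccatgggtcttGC
NSR1 63 nt: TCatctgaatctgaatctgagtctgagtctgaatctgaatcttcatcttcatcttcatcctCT
SNR30 12 nt: ACaacggcatCA

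The first question is how unusual it was for a form to be on one side of the genotypes. Of 2690 forms outside SCR1 with reads in at least 2 of the 12 libraries, the 189 prp43-1-only forms made up 7.03%. The mirror set, with 0 reads in the prp43-1 libraries and reads in at least 2 PRP43 libraries, held 226 forms, or 8.4%, in 185 hosts. The share that was missing from the PRP43 libraries was therefore no larger than the share missing from the prp43-1 libraries.

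Both shares were smaller the more reads a form had, except from 3 to 4 reads in the mirror set. Of the forms with 2 reads in all, 22.6% were prp43-1-only and 21.2% were in the mirror set. With 4 reads the shares were 9.68% and 17.5%, with 5 to 9 reads 6.41% and 8.72%, and with 10 to 18 reads 1.34% and 2.14%. None of the 838 forms with 19 or more reads was prp43-1-only, and 2 were in the mirror set. In no class of 3 or more reads did the prp43-1-only forms outnumber their mirror.

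**Figure D1:**
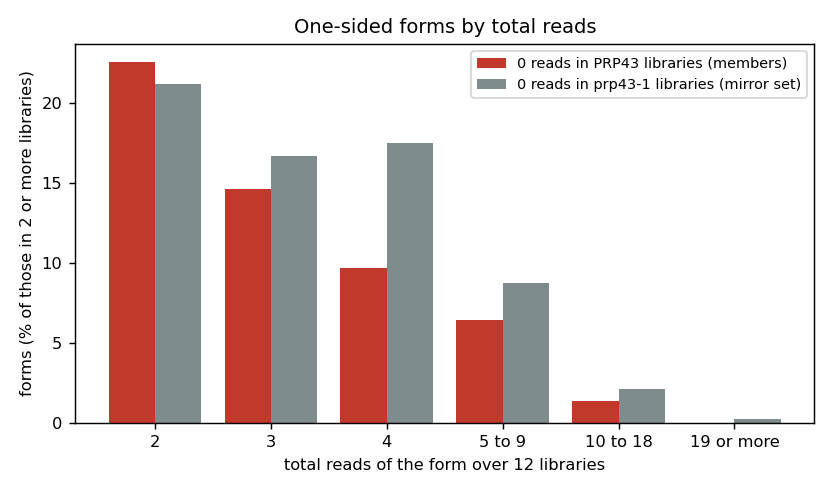
Share of forms with reads in at least 2 libraries (y axis, %) that had 0 reads in the PRP43 libraries (red) or 0 reads in the prp43-1 libraries (grey), by total reads of the form over 12 libraries (x axis). Both shares drop from above 20% at 2 reads to 1.34% and 2.14% at 10 to 18 reads.

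A total of 81 of the 189, or 42.9%, had 1 read in each of exactly 2 libraries, the least the selection allows. A count of 0 over the 6 PRP43 libraries still allows up to 3 reads there, for counting error only, and 124 of the 189 (65.6%) had no more than 3 reads themselves. Forms with at least 5 reads numbered 44, and those with at least 10 reads 5. By number of prp43-1 libraries, 135 forms were seen in 2, 35 in 3, 13 in 4, 4 in 5, and 2 in all 6. The mirror set had 63 forms with at least 5 reads, 10 with at least 10 and none in all 6 PRP43 libraries, and its most-read form had 40 reads.

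Just outside the selection lay 143 forms that had exactly 1 read in the PRP43 libraries. The most-read of them was the 96-nt form of RPL7A, with 1 read in wild type at 37 °C. At 25 °C it had 19 reads for the prp43-1 strain, 14 for set1Δ prp43-1 and 13 for set2Δ prp43-1. At 37 °C it had 10, 9 and 8 in the same order, so every prp43-1 library exceeded every PRP43 library. The form was picked on these counts, so the choice favoured this excess, which was not tested. The next was a 36-nt form in PRM7 with 16 reads in the prp43-1 libraries, followed by an 18-nt form in UTH1 and a 565-nt form in RPL27A with 11 each, and a 72-nt form in YDJ1, an Hsp40 chaperone gene, with 10. A further 1332 forms had 0 reads in the PRP43 libraries and were seen in a single prp43-1 library, with at most 7 reads, while 1035 were seen in a single PRP43 library and no other. The prp43-1 library at 37 °C held 727 of the 1332, and the other 5 prp43-1 libraries held 605, so the order of the totals rests on that library.

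The 110-nt form of RPL7A was the most-read of the 189 and one of the 2 seen in all 6 prp43-1 libraries. At 25 °C it had 1 read for the prp43-1 strain, 3 for set1Δ prp43-1 and 1 for set2Δ prp43-1, and at 37 °C 5, 7 and 1 in that order. Reads were more numerous at 37 °C in prp43-1 and in set1Δ prp43-1 and equal in set2Δ prp43-1. The form begins at the annotated 5′ splice site, ends with CAG, and stops 320 nt before the branch-point adenosine of that intron, which also holds the small nucleolar RNA gene SNR39. The 96-nt and 69-nt forms stop 334 and 361 nt before it, and the 69-nt form had 1 read at each temperature in prp43-1 alone.

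In the other intron of RPL7A, from 365985 down to 365527, a 451-nt and a 445-nt form of the selection began at the annotated 5′ splice site and stopped 8 and 14 nt short of the annotated 3′ end, without AG. The 451-nt form had 3 reads in prp43-1 at 25 °C, 1 at each temperature in set1Δ prp43-1 and 2 from set2Δ prp43-1 at 25 °C. Forms next to it were not limited to the mutant: a 460-nt form from the same site had 53 reads with intact Prp43 and 44 with prp43-1. RPL7A has a close paralog, and the rule by which reads were assigned to similar copies was not given, so its counts carry that uncertainty, as do those of other duplicated ribosomal protein genes.

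**Figure D2:**
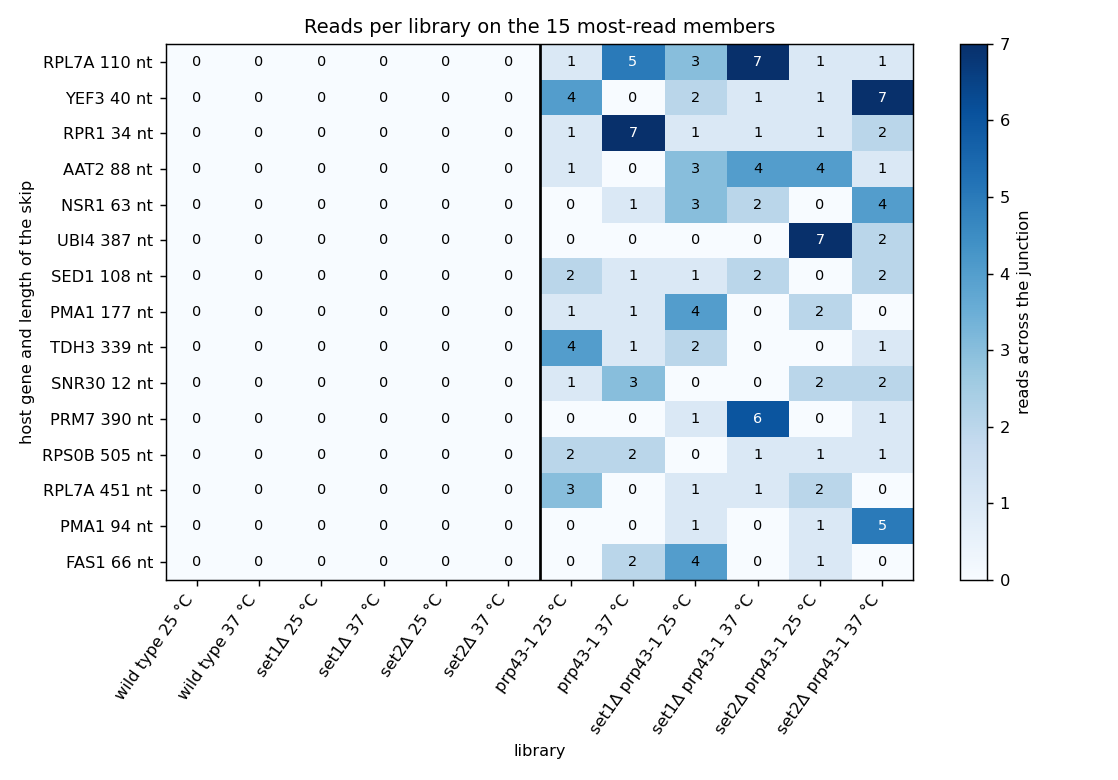
Reads across each skip (numbers and blue shade) for the 15 most-read prp43-1-only forms (rows, host gene and length) in the 12 libraries (columns; the line separates PRP43 libraries from prp43-1 libraries). The left 6 columns are 0 by the selection, and no cell exceeds 7 reads.

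The other most-read forms were uneven across the prp43-1 libraries. In YEF3, the 40-nt form had 15 reads. At 25 °C there were 4 for the prp43-1 strain, 2 for set1Δ prp43-1 and 1 for set2Δ prp43-1, and at 37 °C 0, 1 and 7. In RPR1, the 34-nt form had 13 reads, 7 of them in prp43-1 at 37 °C and 1 or 2 in each other prp43-1 library. Its ends lay within 10 nt of those of a form that was seen in the PRP43 libraries. In AAT2, the 88-nt form also had 13 reads, with 1, 3 and 4 at 25 °C and 0, 4 and 1 at 37 °C in the same order of strains. No library was highest for all 3, and the 2 temperatures overlapped for each.

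In NSR1, the 63-nt form had 10 reads, of which 5 were in set1Δ prp43-1, 3 at 25 °C and 2 at 37 °C, and 4 came from set2Δ prp43-1 at 37 °C. In UBI4, the polyubiquitin gene, the 387-nt form had 7 reads at 25 °C and 2 at 37 °C in set2Δ prp43-1 and none in the other libraries, so it was seen in 1 strain only. In PRM7, the 390-nt form had 6 of its 8 reads in set1Δ prp43-1 at 37 °C. The UBI4 and PRM7 forms thus had most of their reads in 1 library, and the NSR1 form did not.

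Forms with 8 reads lay in SED1, a cell wall protein gene (108 nt, in 5 libraries), PMA1, the plasma membrane proton pump (177 nt, in 4), TDH3, a glyceraldehyde-3-phosphate dehydrogenase (339 nt, in 4), and SNR30 (12 nt, in 4). Forms with 7 reads included a 94-nt form in PMA1 with 5 of them in set2Δ prp43-1 at 37 °C, a 66-nt form in FAS1, the fatty acid synthase beta subunit, and a 505-nt form in RPS0B. The 15 most-read forms held 146 of the 676 reads, or 21.6%.

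By position, 138 of the 189 (73.0%) lay inside a coding exon, 16 inside an annotated intron, and 20 overlapped one. Another 10 lay in noncoding RNA genes, against 1 in the mirror set, and 2 crossed an end of their host. The remaining 3 were assigned by the authors to YKL153W and YLR339C, which are not in the annotation used. By position, both YKL153W forms overlap the annotated gene GPM1, and the YLR339C form overlaps RPP0. They were not counted under those genes, neither by position nor in the host lists below. The 10 noncoding forms were in RPR1 (34 and 38 nt), SNR37 (64 nt at 2 positions), SNR17A (52 and 37 nt), SNR30, SNR84, SNR4 and SNR86, and together they had 47 reads. SNR17A encodes U3, the small nucleolar RNA of early pre-rRNA cleavage. Noncoding hosts made up 5.29% of the prp43-1-only forms, 0.442% of the mirror set and 5.93% of the other forms seen in at least 2 libraries. Their share was 2.95% of all listed forms outside SCR1. The prp43-1-only share was thus nearest to that of the other forms seen in at least 2 libraries.

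Splice-site ends were a minority. GT-AG ends, read on either strand, were found in 23 of the 189 (12.2%), in 67 of the 226 mirror forms (29.6%), and in 11.7% of the other 2275 forms with reads in at least 2 libraries. TACTAAC, searched on 1 strand (that of GT-AG ends where present, otherwise that of the host), was found in 27 (14.3%), against 23.5% of mirror forms and 11.8% of the others. Both features together were found in 9 forms, against 40 in the mirror set. The deposited p-value, which is 1 number per form whose test is not described, was under 0.05 for 30 of the 189 (15.9%), 32.7% of the mirror set and 273 of the other 2275. By each of these measures the prp43-1-only forms lay nearer to the other forms than to the mirror set. These shares are descriptions and were not tested.

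Skips were short, with a median of 94 nt, quartiles of 36 and 319 nt, and a range of 11 to 1851 nt. The median was 89 nt in the mirror set and 69 nt in the other forms. Under 50 nt there were 65 of the 189 (34.4%), and 16 (8.47%) were 500 nt or longer, with the longest in FLO1, a flocculation gene. Inside coding exons, 71 of 138 lengths (51.4%) were a multiple of 3, against 50.6% in the mirror set and 65.6% in the other forms. A repeat of at least 8 nt at both ends, which leaves the exact position of a skip undecided, was found in 6 forms (3.17%), led by HHF1, a histone H4 gene, with 13 nt and the 390-nt form of PRM7 with 10 nt.

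**Figure D3:**
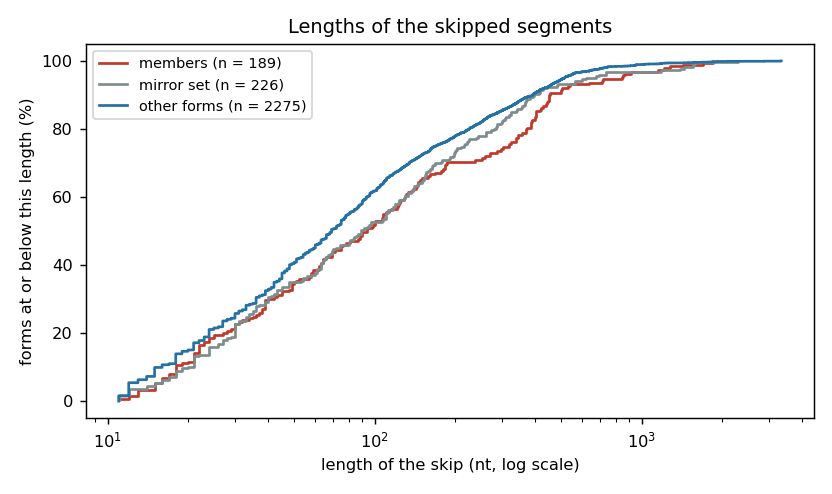
Cumulative share of forms (y axis, %) by length of the skip (x axis, nt, log scale) for the prp43-1-only forms (members, red), the mirror set (grey) and the other forms with reads in at least 2 libraries (blue). The median of 94 nt in the prp43-1-only forms compares with 89 and 69 nt.

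A total of 24 prp43-1-only forms used an annotated 5′ splice site with another 3′ end, and 7 used an annotated 3′ splice site with another start. Of these 31 forms, 20 were in ribosomal protein genes and 16 had GT-AG ends. The share of ribosomal protein genes at annotated sites was not counted for the other sets, so the 20 is no sign of enrichment. At annotated 5′ sites, GT-AG ends were found in 14 of 24 prp43-1-only forms, 21 of 25 mirror forms and 123 of 185 other forms. Among the 24 prp43-1-only forms with an annotated 5′ site, 13 stopped inside the intron and 11 went past its 3′ end. Of the forms that went past it, the RPS0B form (505 nt, 146 nt past) had 7 reads, with 2, 0 and 1 at 25 °C and 2, 1 and 1 at 37 °C in prp43-1, set1Δ prp43-1 and set2Δ prp43-1. The RPS14B form (420 nt, 12 nt past) had 5, of which 2 were in prp43-1 at 25 °C and 3 in set1Δ prp43-1. The RPL36B and SUS1 forms shown above, 33 and 60 nt past, had 3 and 2 reads. These 4 and the forms of RPS17A (403 nt, 3 reads), SAC6, the fimbrin gene (113 nt, 2 reads), and RPS4A (260 nt, 2 reads), which end 5, 2 and 4 nt past the annotated site, all have GT-AG ends and hold TACTAAC. VMA9 and NCB2 (76 nt, 2 reads), which use an annotated 3′ site, complete the 9 forms with both features.

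For 21 of the 24 forms at an annotated 5′ site, the intron holds a TACTAAC, and 7 of these 21 (33.3%) stopped before its branch-point adenosine. The same was found for 2 of 21 in the mirror set (9.52%) and 3 of 157 among the other forms (1.91%). The 7 were the RPL7A forms of 110 and 69 nt, the RPL40B form of 124 nt, the EFB1 forms of 94 and 319 nt, the MPT5 form of 115 nt and the RPS4B form of 137 nt, with 39 reads in all. They came from 5 genes and 2 pairs share a splice site, so they are not 7 independent cases, and no test was made.

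The RPL40B form had 5 reads in prp43-1 at 25 °C and 1 in set2Δ prp43-1 at 37 °C. The 94-nt EFB1 form, in an intron that holds SNR18, had 1 read in prp43-1 at 37 °C, 2 in set1Δ prp43-1 at 37 °C, and 1 at each temperature in set2Δ prp43-1. It ends with ATG, while the other 6 end with AG. The MPT5 form had 1 read in set1Δ prp43-1 at 25 °C and 2 in set2Δ prp43-1 at 37 °C, and the RPS4B form had 1 in prp43-1 and 2 in set2Δ prp43-1, all at 37 °C. Apart from the 110-nt RPL7A form, none had more than 6 reads.

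Stopping before the branch point was not limited to prp43-1. Of 445 listed forms at an annotated 5′ site of such an intron, 33 did so, and 26 of these were not in the selection. Without the 96-nt RPL7A form, those 26 had 124 reads with intact Prp43 and 128 with prp43-1, most of them on a 265-nt form of RPL27A with 92 and 121. The 2 mirror forms were in IMD4 (164 nt, 8 reads) and RPL26B (279 nt, 6 reads). The 412 forms that ended past the branch point had 4351 reads with intact Prp43 and 2855 with prp43-1. A few forms held most of these reads. Over the 12 libraries, a 327-nt form of ECM33 had 2707, a 365-nt form of APE2 1031 and a 379-nt form of RPS10B 744. The sums therefore do not describe the 412 forms in general.

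**Figure D4:**
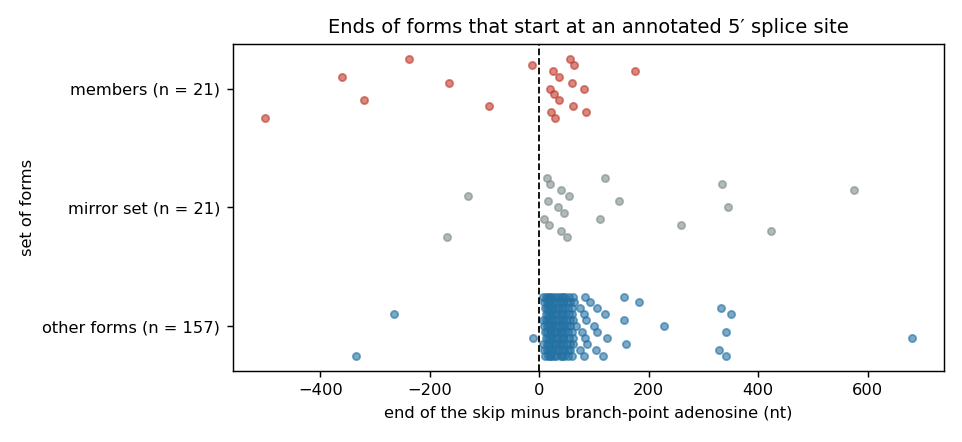
Distance of the end of the skip from the branch-point adenosine (x axis, nt; the dashed line is 0) for forms that start at an annotated 5′ splice site of an intron with TACTAAC. Each point is 1 form and the vertical scatter only separates points; 7 of 21 prp43-1-only forms (members) lie left of the line, against 2 of 21 in the mirror set and 3 of 157 other forms.

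Among the 7 forms at an annotated 3′ splice site, 4 began 4 nt upstream of the annotated 5′ site, in RPL33A (529 nt, 7 reads), RPL14A and RPL14B (402 nt and 3 reads each), and VMA9, a subunit of the vacuolar proton pump (81 nt, 2 reads). A further form, in RPL17A (297 nt, 3 reads), began 9 nt downstream of the annotated start. The RPL33A reads were 2 in prp43-1 at 25 °C and 5 in set2Δ prp43-1 at 37 °C. RPL14A and RPL14B are paralogs, and their forms have equal lengths, so the assignment of reads between them is uncertain. The shift of 4 nt was also found in 1 mirror form and 6 of the other forms. In all, 17 prp43-1-only forms (8.99%) had both ends within 10 nt of an annotated intron, against 3.54% of the mirror set and 4.26% of the other forms.

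Outside annotated sites, 7 forms had GT-AG ends. The most-read were a 150-nt form in STM1, a ribosome-associated protein gene, with 4 reads in prp43-1 and 1 in set2Δ prp43-1, all at 37 °C, and a 90-nt form in SNQ2, a drug transporter gene, with 4 reads in 3 libraries.

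Hosts were mostly represented once: 96 of 129 held 1 prp43-1-only form, 23 held 2, 3 held 3, and 7 held at least 4. Those 7 were YEF3 and PRM7 with 7 forms each, SED1 with 6, DDR48, a stress-response gene, and YNL190W with 5 each, and RPL7A and ADH1, an alcohol dehydrogenase, with 4 each, or 38 forms together. Some of these hosts also had many other listed forms. SED1 had 237 listed forms with 21740 reads with intact Prp43 and 18603 with prp43-1, and YEF3 had 75 with 2436 and 2125. PRM7 had 28 listed forms, no mirror form, and 69 and 168 reads. RPL7A had 25, also no mirror form, and 115 and 223 reads.

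Ribosomal protein genes hosted 36 of the 189 (19.05%), in 26 genes. They hosted 32 of the 226 mirror forms (14.2%) and 300 of the other 2275 (13.2%). Of all listed forms outside SCR1 they hosted 12.7%. The share was thus highest among the prp43-1-only forms, but this was not tested. Its Wilson 95% interval, 14.1 to 25.2, overlapped those of the mirror set (10.2 to 19.3) and the other forms (11.9 to 14.6). Glycolytic and fermentation genes hosted 15 (7.94%), in ADH1, CDC19, ENO2, FBA1, PDC1 and TDH3. Their share was 5.31% of the mirror set, 17.3% of the other forms seen in at least 2 libraries and 8.63% of all listed forms outside SCR1. Cell wall protein genes hosted 12 (6.35%), against 3.98%, 20.4% and 9.84% in the same order. Both lists were thus a little more common than in the mirror set and less common than among the other forms, which had a median of 11 reads against 3. Heat shock protein genes hosted 3 (1.59%), in HSP42, SSA2 and SSB1, against 3.10%, 2.51% and 1.84%. Of 16 genes for splicing helicases and spliceosome disassembly, only 5 had a listed form, with 6 forms in all, and only PRP43 hosted one of the 189. That 1 form was 0.529% of the 189, against 0.101% of all listed forms outside SCR1. Genes specific to either mating type hosted none.

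Most hosts were themselves seen with intact Prp43. Of the 129 hosts, 104 had reads on other forms in the PRP43 libraries. For the other 25, which held 26 of the 189, no form had a read there, and those hosts had between 2 and 8 reads in all in the prp43-1 libraries. They included CCT2, a chaperonin subunit gene, with a 143-nt form of 5 reads, MYO5, a type I myosin gene, with a 51-nt form of 5 reads, and SKI3, an exosome cofactor gene, with a 49-nt form of 4 reads. The table holds no expression level for a gene, so a difference in the level of the host could not be told apart from a difference in the skip. In addition, 45 of the 189 (23.8%) had both ends within 10 nt of a form that was seen in the PRP43 libraries, against 13.3% of the mirror set measured the other way round. Among the 15 most-read forms, this held for those of RPR1 (34 nt), SED1 (108 nt), SNR30 (12 nt) and RPL7A (451 nt) only.

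The selection did not name temperature, but it used the counts of the same 6 libraries, so values by temperature are descriptions of the chosen forms. The forms that passed only with a given library numbered 41 and 61 for prp43-1, 57 and 33 for set1Δ prp43-1, and 37 and 41 for set2Δ prp43-1, at 25 °C and 37 °C. The number and share given for a library include these forms by construction. The prp43-1-only forms as a group were seen about equally at both temperatures: 340 of their reads came from the 25 °C libraries and 336 from the 37 °C libraries. The 3 libraries at 37 °C held fewer reads outside SCR1, 138692 against 196000. Reads were more numerous at 37 °C for 65 forms and at 25 °C for 71, and equal for 53.

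The share of non-SCR1 reads on the 189 forms was higher at 37 °C in each of the 3 strains. It was 0.202% (Wilson 95% interval 0.166 to 0.245) at 25 °C and 0.380% (0.322 to 0.447) at 37 °C in prp43-1. In set1Δ prp43-1 it was 0.155% (0.131 to 0.184) and 0.170% (0.138 to 0.208). In set2Δ prp43-1 it was 0.176% (0.146 to 0.213) and 0.217% (0.179 to 0.263). The intervals cover counting error only. The reads include those of forms that passed the selection only with that library, so overlap of the intervals is no test of temperature. On the log2 scale the difference was 0.91 for the prp43-1 strain, 0.13 for set1Δ prp43-1 and 0.30 for set2Δ prp43-1, with a mean of 0.45 (SD 0.41, n = 3 strains). Relative to the column totals, which include SCR1, the mean was -0.13, and it was 0.21 without the prp43-1 strain.

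The number of the 189 seen went the other way in both double mutants. It was 75 at 25 °C and 86 at 37 °C in the prp43-1 strain. In set1Δ prp43-1 it was 97 and 56, and in set2Δ prp43-1 it was 74 and 71. The set1Δ prp43-1 library at 25 °C, with the most of the 189 forms, also had the most non-SCR1 reads, 86845 against 54267 at 37 °C. Per 10000 such reads it had 11.2 forms at 25 °C and 10.3 at 37 °C, while prp43-1 had 15.3 and 23.0 and set2Δ prp43-1 12.3 and 15.1. How far depth and the prp43-1 library at 37 °C set these values was not tested.

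**Figure D5:**
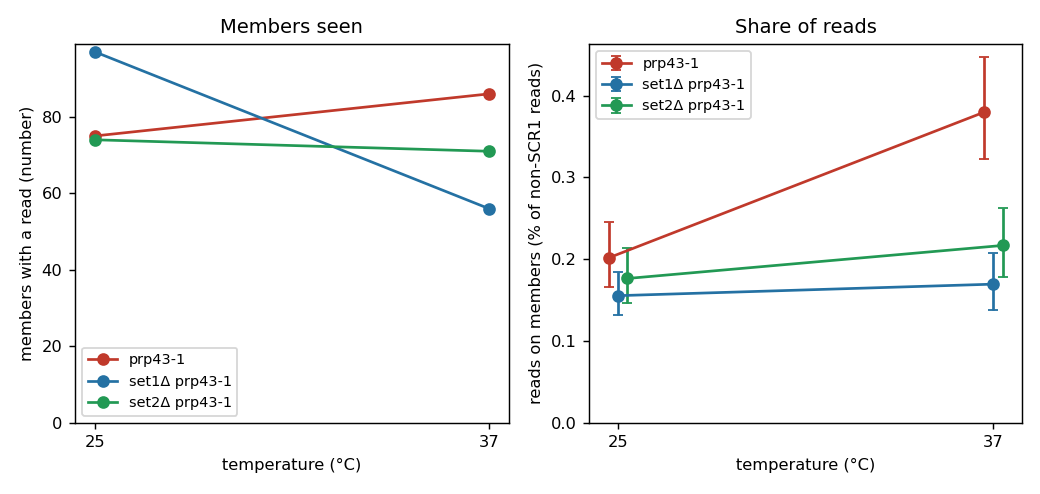
Number of the 189 prp43-1-only forms with at least 1 read (left, y axis) and their share of non-SCR1 reads (right, y axis, %, with Wilson 95% intervals; points are offset sideways) at 25 °C and 37 °C (x axis) in the 3 prp43-1 strains. The number went from 97 to 56 in set1Δ prp43-1, and the share in prp43-1 was 0.202% at 25 °C and 0.380% at 37 °C.

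At single temperatures, 33 of the 189 (17.5%) were seen only at 25 °C and 28 (14.8%) only at 37 °C. Among all 1825 non-SCR1 forms seen in at least 2 prp43-1 libraries, the shares were 10.8% and 4.88%. Among the 1146 non-members of these with 2 to 18 reads in the prp43-1 libraries, they were 14.4% and 5.24%. Those 1146 held 4516 reads at 25 °C and 3221 at 37 °C, against 340 and 336 on the 189. Reads per form were thus not matched, and forms with fewer reads are more easily seen at 1 temperature only. The prp43-1 library at 37 °C held reads on 20 of the 28, and set1Δ prp43-1 at 25 °C held reads on 27 of the 33. None of the 28 was seen in all 3 libraries of its temperature, and 5 of the 33 were.

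Those seen only at 37 °C with the most reads had 5 reads each: a 143-nt form in CCT2, the 150-nt form in STM1, and 2 forms in PRM7, of 498 and 386 nt. Those seen only at 25 °C included a 27-nt form in RNR2, a ribonucleotide reductase subunit gene, and a 911-nt form in VMA2, a subunit of the vacuolar proton pump, with 5 reads each. In PIR1, a cell wall protein gene, a 39-nt form had 4 reads in all 3 strains at 25 °C and none at 37 °C.

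Form by form, no prp43-1-only form passed the test for a change with temperature. The edgeR quasi-likelihood test on the 6 prp43-1 libraries, with strain as a term, called 39 of 376 forms tested (10.4%) at an adjusted p under 0.05, and none of the 189 had enough reads to enter it. With a minimum of 3 reads over the 6 libraries, 1940 forms entered and 26 were called (1.34%), against 0 of 106 prp43-1-only forms. Of those 106, 51 were higher and 55 lower at 37 °C, none had an unadjusted p under 0.05, and their median log2 difference was -0.17, against -0.12 for all forms tested. The smallest adjusted p (edgeR) was 0.823, for the 110-nt RPL7A form with a fitted log2 difference of 1.54. The counts of most of these forms are too low for a change to be detectable at this depth.

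By strain, 25 of the 189 were seen in 1 strain, 135 in 2 and 29 in all 3. Among the 1825 forms seen in at least 2 prp43-1 libraries, 57.5% were seen in all 3 strains, and among the 1146 non-members with 2 to 18 reads 46.7%, against 15.3% of the 189. The 1146 forms were not matched to the 189 in reads per form. The 81 forms with 1 read in each of 2 libraries could not be seen in 3 strains. The prp43-1 strain held reads on 132 of the 189, set1Δ prp43-1 on 131 and set2Δ prp43-1 on 119. Of these, 29, 22 and 26 were seen at both temperatures of that strain. Forms of 1 strain numbered 14, 5 and 6 in that order, led by the UBI4 form in set2Δ prp43-1. A 58-nt form in PDC1, a pyruvate decarboxylase gene, and a 123-nt form in POR1, the mitochondrial porin gene, followed, each with 1 read at 25 °C and 5 at 37 °C in prp43-1.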

How the data were processed

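The authors deposited 1 table of splice forms outside the annotation, with a count of reads per form and library, per the file headers, and 1 p-value per form whose test is not described. The submitters' processing notes name STAR 2.4.0, CASAVA and sacCer3. The counting rule, its use of strand and the treatment of similar copies are not given in the sources used here, and reads were not deduplicated by molecular identifiers as far as the labels say. All 12 columns matched 1 sample each.

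The build was checked against R64: 729 of the 1112 forms whose deposited p-value is below 1 had GT-AG ends as given, and no more than 26 when moved by up to 40 nt. Host genes of 6101 of 6195 forms matched the RefSeq annotation, which held 281 introns in 271 coding genes. An annotated site was shared when the coordinate was equal.

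The 189 forms and the gene lists were chosen with earlier results of these data known. Forms named in the text are the 15 with the most reads, those with splice-site features, those at annotated sites, hosts with at least 4, and the 5 with most reads just outside. Others, such as those in CCT2, STM1, SNQ2, RNR2, VMA2, PIR1, PDC1, POR1, MYO5, SKI3 and FLO1, were picked after their values were seen.

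Temperature was tested with edgeR 4.0.16 (filterByExpr, TMM factors, Benjamini-Hochberg, R 4.3.3) in the 6 prp43-1 libraries, with DESeq2 1.42.0 as an alternative. With 1 library per condition and strain as a term, the spread is what remains after strain and temperature. It mixes differences between strains in their change with temperature and variation between single libraries, and p-values measure that spread. Log2 differences of shares used a pseudocount of 1 read. Script output was tested on simulated data with known changes. Wilson 95% intervals cover counting error only.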

Additional observations from a re-analysis of the deposited data

Results flagged for a closer look

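The number of prp43-1-only forms with a read moved in opposite directions with temperature in different strains. The log2 difference, 37 °C over 25 °C, was 0.20 for the prp43-1 strain, -0.79 for set1Δ prp43-1 and -0.0597 for set2Δ prp43-1. Each rests on 1 library per temperature, and the difference between strains was not tested. Non-SCR1 reads were fewer at 37 °C in every strain, 37392 against 49088, 54267 against 86845 and 47033 against 60067 in the same order. The part that depth takes in the numbers was not tested.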

How the results depend on the processing

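The selection depends on its thresholds. It gave 54 forms with reads in at least 3 libraries, 23 with at least 2 reads in each of 2, 332 with up to 1 read allowed in the PRP43 libraries, 191 with SCR1 included, and 189 distinct positions. Without a genotype it gave 95 to 286 forms: 96 without prp43-1, 95 without set1Δ prp43-1, 108 without set2Δ prp43-1, 286 without set1Δ, 280 without wild type and 270 without set2Δ. Alternatives added after the data were seen gave 285 forms with wild type, prp43-1 and set1Δ prp43-1 alone and 128 without the prp43-1 library at 37 °C. The mean log2 temperature difference of the share of reads was -0.13 relative to column totals, and between 0.21 and 0.60 under the other settings. That of the number seen, -0.22 (SD 0.51, n = 3), was 0.0634 with at least 2 reads, 0.26 per 10000 non-SCR1 reads and 0.0689 without set1Δ prp43-1. The temperature fit over all forms called 39, with 5 higher and 34 lower, and gave 62 without TMM factors, 24 without SCR1 (16 higher and 8 lower), 12 with DESeq2, 20 with at least 1 read, 4 with all 12 libraries, 69 without prp43-1, 0 without set1Δ prp43-1 (62 at an unadjusted p under 0.05, edgeR) and 7 without set2Δ prp43-1. No prp43-1-only form was called by edgeR or DESeq2 under any of these, but they entered only the fits with minimums of 3 reads and 1 read, so no fold changes of single forms were compared across the others. The median length was 123.5 nt for forms with at least 5 reads. The share with GT-AG ends stayed between 11.1% and 12.2%. For the number of forms, the rule fixes the direction of several of these shifts. Leaving out a genotype with intact Prp43 can only add forms. Leaving out prp43-1 libraries or asking for more reads or libraries can only remove them. The cause of the other shifts was not tested. The mean log2 differences and the temperature fits pair the libraries of a strain, by differences within the strain or by strain as a term. Values pooled over the libraries of a temperature are not paired. These are the summed reads, the forms with more reads at either temperature, and the forms seen at a single temperature.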
